A study of Mus musculus with 32 samples.

Results

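The genes described are the heat shock protein and DnaJ co-chaperone families of the mouse, followed in the cochlea before and after damaging noise. They were chosen by symbol: every gene listed in all 32 files whose symbol starts with Hspa, Hspb, Hspd, Hspe, Hsph, Hsp90a, Dnaja, Dnajb or Dnajc followed by its number, without Hspa5 and Dnajb9, which serve the endoplasmic reticulum. The rule uses symbols alone. It gave 69 of the 39399 genes listed in all files: 9 of the Hsp70 class, 3 of the Hsp110 class, 2 of the Hsp90 class, the 2 subunits of the mitochondrial chaperonin, 7 small heat shock proteins, 4 DnaJA, 12 DnaJB and 28 DnaJC genes. The last 2, Hspb11 and Hspbap1, share the symbol but are not heat shock proteins in structure.

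Hsp70 proteins bind exposed hydrophobic stretches of unfolded proteins and release them in cycles of ATP hydrolysis. DnaJ proteins, named for the J domain that stimulates this hydrolysis, deliver clients to Hsp70, Hsp110 proteins exchange its nucleotide, Hsp90 completes the folding of kinases and receptors, and small heat shock proteins hold unfolded proteins without ATP. After heat or other proteotoxic stress, heat shock factor 1 binds repeats of GAA and TTC in the promoters of the inducible members and raises their transcription, while other members, such as Hspa8 and Hsp90ab1, are made at high levels in unstressed cells. In the inner ear the inducible chaperones are known for the heat shock response of hair cells and of the supporting cells around them.

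Cochleae came from 10-week-old mice of 2 strains, PrestinCreERT2;RiboTag;CBA (genotype PrestinCre/+;RiboTagHA/+, called Prestin below) and Sox2CreERT2;RiboTag;CBA (genotype Sox2Cre/+;RiboTagHA/+, called Sox2 below). Every mouse, controls included, carried RiboTag, an allele that puts an HA tag on the ribosomal protein Rpl22 in cells with active Cre, and CreERT2 driven by Prestin, a gene of outer hair cells, or by Sox2, a gene of supporting cells and glia. CreERT2 acts only with tamoxifen, whose use is not given in the sources used here. Controls had no noise, and the other mice were taken 6 h or 24 h after noise of 105 dB SPL lasting 2 h. Each homogenate gave a whole cochlea library (input) and a pull-down library, in which RNA on tagged ribosomes was collected with an HA antibody. The 32 libraries from 16 homogenates fell into 12 groups, with 3 libraries in each Prestin group and, in the Sox2 groups, 2 in the control and 6 h groups and 3 in the 24 h groups.

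Levels are in TPM, a length-scaled share of each library's reads, so depth and counting error are unknown. The number of genes above 0 was 15929 to 21239 per library, lowest in the 4 Sox2 libraries at 6 h (15929 to 16966). The markers checked enrichment of the target cells, not purity. In Prestin the median difference, pull-down minus input on a log2 scale, was 2.38 for outer hair cell genes and 0.82 for all genes. There it was 1.13 for endothelial, 0.89 for Schwann and satellite glia, 0.53 for supporting cell and -0.38 for macrophage genes. In Sox2 it was 2.40 for Schwann and satellite glia, 1.77 for supporting cell, 0.66 for endothelial, -0.54 for stria and 0.65 for all genes. Ocm, an outer hair cell calcium buffer, averaged 483 to 1141 TPM in the Prestin pull-down groups against 46.7 to 71.3 TPM in the whole cochlea groups, and Sox2 averaged 284 to 487 TPM in the Sox2 pull-down groups against 34.7 to 72.4 TPM. The summed level of 10 outer hair cell markers was 854 to 2258 TPM in the Prestin control pull-downs, 585 to 862 TPM at 6 h and 823 to 934 TPM at 24 h, and 2 of the 3 controls were above every exposed pull-down. The part of that difference in the chaperone results was not tested. In tissue RNA, fewer cells of a type and less RNA per cell cannot be told apart.

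Of the 69 genes, 50 reached 1 TPM in all 32 libraries and 41 averaged at least 10 TPM. Hsp90ab1, the constitutive cytosolic Hsp90, was the most abundant, with a mean of 1902 TPM over all libraries. Next came Hspa2, an Hsp70 known from testis, at 318 TPM, the small heat shock protein Hspb1 at 162 TPM, the inducible Hsp90aa1 at 156 TPM, the neuronal J protein Dnajb2 at 114 TPM and the mitochondrial Dnajc30 at 110 TPM. These means pool inputs and pull-downs and are not a ranking of the whole cochlea. In the inputs Hspa2 was at 102 to 181 TPM and Hspb1 at 102 to 308 TPM. Dnajc30 lies over Bud23 on the opposite strand for 758 bases, and whether the authors' counting used strand is not given in the sources used here, so whether reads of the pair were separated is unknown. Dnajb8 and Dnajc5g were listed at 0 in every library and Dnajb7 at 0 in every Sox2 library, and 10 genes, these included, averaged under 1 TPM.

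Hspa1a and Hspa1b, the stress-inducible Hsp70 genes, are near-identical copies. Both have a single exon and lie in the same orientation on chromosome 17 of GRCm38 (Hspa1a at 34969190 to 34972156 and Hspa1b at 34956436 to 34959238, minus strand), 9951 bases apart. Their coding sequences differed at 11 of 1929 aligned positions (99.4% identity), whereas Hspa1a and the neighbouring Hspa1l were 82.7% identical. Reads from one copy can therefore be assigned to the other, and their separate values are uncertain. Their sum is given beside them.

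The promoters of 4 genes that rose with noise are shown because they hold alternating GAA and TTC units, which heat shock factors bind. They were chosen after the search, as motif carriers. The lines give the 250 bases before the transcript start in 5′ to 3′ direction of the gene, from RefSeq (GRCm38.p6), with capitals for 2 adjoining units in opposite orientation, GAANNTTC or TTCNNGAA. Each of these 2 motifs is its own reverse complement, so a single search covers both strands.

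Hspa1a, chr17:34972157-34972406, minus strand: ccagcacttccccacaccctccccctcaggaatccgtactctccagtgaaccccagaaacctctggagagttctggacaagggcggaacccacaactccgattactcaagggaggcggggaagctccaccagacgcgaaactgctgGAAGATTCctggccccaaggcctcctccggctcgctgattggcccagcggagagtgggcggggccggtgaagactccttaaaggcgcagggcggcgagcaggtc

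Hspa1b, chr17:34959239-34959488, minus strand: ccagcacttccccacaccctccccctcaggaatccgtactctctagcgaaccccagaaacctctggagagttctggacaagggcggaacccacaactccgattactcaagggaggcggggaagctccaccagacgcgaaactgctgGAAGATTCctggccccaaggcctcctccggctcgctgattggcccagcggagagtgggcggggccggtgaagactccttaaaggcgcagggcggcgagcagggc

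Hspb1, chr5:135887669-135887918, plus strand: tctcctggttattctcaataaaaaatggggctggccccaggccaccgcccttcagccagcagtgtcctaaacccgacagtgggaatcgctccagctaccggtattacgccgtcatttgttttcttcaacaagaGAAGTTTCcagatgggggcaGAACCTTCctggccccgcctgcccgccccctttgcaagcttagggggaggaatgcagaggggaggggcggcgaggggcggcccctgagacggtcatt

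Hsph1, chr5:149636316-149636565, minus strand: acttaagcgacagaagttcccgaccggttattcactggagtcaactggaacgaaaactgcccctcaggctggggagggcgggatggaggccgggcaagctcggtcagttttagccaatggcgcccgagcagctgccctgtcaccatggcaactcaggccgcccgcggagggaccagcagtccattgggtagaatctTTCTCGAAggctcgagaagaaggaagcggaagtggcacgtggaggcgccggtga

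Hspa1a and Hspa1b shared the same motif at the same place, starting 104 bases before the start, and differed at 3 of the 250 bases printed. Hspb1 held 2 motifs, starting 117 and 97 bases before the start. Hsph1 held 1 in the printed stretch, starting 54 bases before the start, and overlapping motifs that form 3 adjoining units from base 16 of its transcript. Hspb8, not printed, held 1 from base 3 of its transcript. RefSeq windows, 250 bases before to 50 after a start, were found for 55 of the 69 genes, and 29.1% of these (16 of 55) held a motif of 2 units, against 17.0% of all 27025 genes with a window. The windows of 8 of the 9 members that rose 6 h after noise (given next) could be searched: 5 of 8 held the motif, against 10 of 39 among members tested and not called. Among the 5, Hspa1a and Hspa1b have windows that differ at 4 of 300 bases, so they are not separate cases. Dnajb5, Hspa2 and Hspa4l rose and held none in their windows. The longer motif of 3 units (a further unit after 2 free bases, alternating in orientation, on both strands) was in 4 members, Dnajb6, Hspd1, Hspe1 and Hsph1, and in 0.662% of all genes. These are matches of letters and were not tested for binding.

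In the whole cochlea 6 h after noise, 9 chaperone genes rose and none fell. The inducible Hsp70 copies Hspa1a and Hspa1b and the small heat shock protein Hspb1 moved most. The others were Hsph1 and Hspa4l, nucleotide exchange factors of the Hsp110 class, Hsp90aa1, Hspa2, the small heat shock protein Hspb8 and the J protein Dnajb5. The 28 DnaJC genes gave no call among the 24 tested. Responses were taken from 16 inputs with the strain as a covariate, by limma on log2(TPM + 1), with Benjamini-Hochberg adjustment over all 14204 genes tested and a threshold of 0.05. Of all genes tested, 8.54% passed in either direction, 3.83% as higher and 4.71% as lower. Of the 59 members tested 9 did, all higher. Among the 59 members 19 had an unadjusted p under 0.05, as did 3550 of all 14204 genes tested. The median member differed by -0.02 and the median gene by -0.09.

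Hspb1 (chromosome 5, 135887919 to 135889563, plus strand, 2 exons) encodes Hsp27, a small heat shock protein that binds unfolded proteins and actin. In the control inputs it was at 102, 126 and 134 TPM in Prestin and at 134 and 135 TPM in Sox2. At 6 h it was at 308, 281 and 269 TPM in Prestin and at 163 and 206 TPM in Sox2. Every exposed input was above every control, and the Prestin inputs lay above the Sox2 inputs. The pooled difference was 0.92 ± 0.17 (log2 scale ± SE, adjusted p = 0.00415), from a mean of 126 ± 14 TPM (SD, n = 5) to 245 ± 59.3 TPM (SD, n = 5).

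Hspa1a was at 22.8, 26.6 and 22.7 TPM in the Prestin control inputs and at 30.2 and 27.4 TPM in the Sox2 ones. At 6 h it was at 67.9, 48.3 and 45.9 TPM in Prestin and at 52.4 and 89.4 TPM in Sox2. The groups did not overlap, and the difference was 1.16 ± 0.28 (adjusted p = 0.0195). Hspa1b was at 26.5, 43.7, 34.9, 38.9 and 48.8 TPM in the same controls and at 124, 83.5, 99.7, 83.4 and 55.2 TPM at 6 h. Its groups did not overlap either, with a difference of 1.17 ± 0.30 (adjusted p = 0.0254). The Hspa1b call held in 13 of the 16 fits that left out 1 library (not without Prestin control replicate 1 or 3 or Prestin 6 h replicate 1, adjusted p = 0.0650, 0.0639 and 0.0632), that of Hspa1a in all 16. Hspa1a made up 38.6% of the sum of both copies in Sox2 replicate 2 at 6 h and 61.8% in replicate 4, while the sums, 136 and 145 TPM, were close. Over all 5 inputs the sum was 49.3 to 76.2 TPM without noise and 132 to 192 TPM at 6 h, so it did not overlap.

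The other 6 moved less. Hsph1 (Hsp105) was at 37.9 to 49.0 TPM in controls and 59.7 to 63.7 TPM at 6 h, with a difference of 0.46 ± 0.09 (adjusted p = 0.00548). Hspb8, which works with Bag3 in selective autophagy, was at 28.8 to 35.8 TPM and then at 36.6 to 46.3 TPM, a difference of 0.35 ± 0.08. Hspa2 went from 102 to 130 TPM in controls to 130 to 181 TPM at 6 h, a difference of 0.44 ± 0.11, and Dnajb5 from 7.64 to 12.3 TPM to 12.4 to 23.9 TPM, a difference of 0.65 ± 0.17. In these 4 genes every exposed input was above every control. Hsp90aa1 (0.34 ± 0.07) and Hspa4l (0.39 ± 0.09) were called too, but their groups overlapped, Hsp90aa1 at 116 to 172 against 158 to 214 TPM and Hspa4l at 41.2 to 54.9 against 51.1 to 65.5 TPM. Across the members, 7 had groups that did not overlap and were higher at 6 h (3.03% of all genes), and 1, Dnajc18, was lower (3.17% of all genes) with an adjusted p of 0.0599. The calls of Hspa2 and Dnajb5 each held in 11 of the 16 fits without 1 library. Hspa2 lost its call without Prestin control 3, Prestin 6 h 1, Sox2 control 1 or either Sox2 6 h library. Dnajb5 lost its call without Prestin control 1 or 2, Prestin 6 h 3, Sox2 control 4 or Sox2 6 h 4. The constitutive partners were not called: Hsp90ab1 differed by 0.13 ± 0.05 (adjusted p = 0.101) and Hspa8, the constitutive Hsp70, by -0.08 ± 0.13. Dnajb1, the main DnaJ partner of inducible Hsp70, was at 71.2 to 107 TPM in controls and 71.4 to 105 TPM at 6 h, and was not called.

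**Figure D1:**
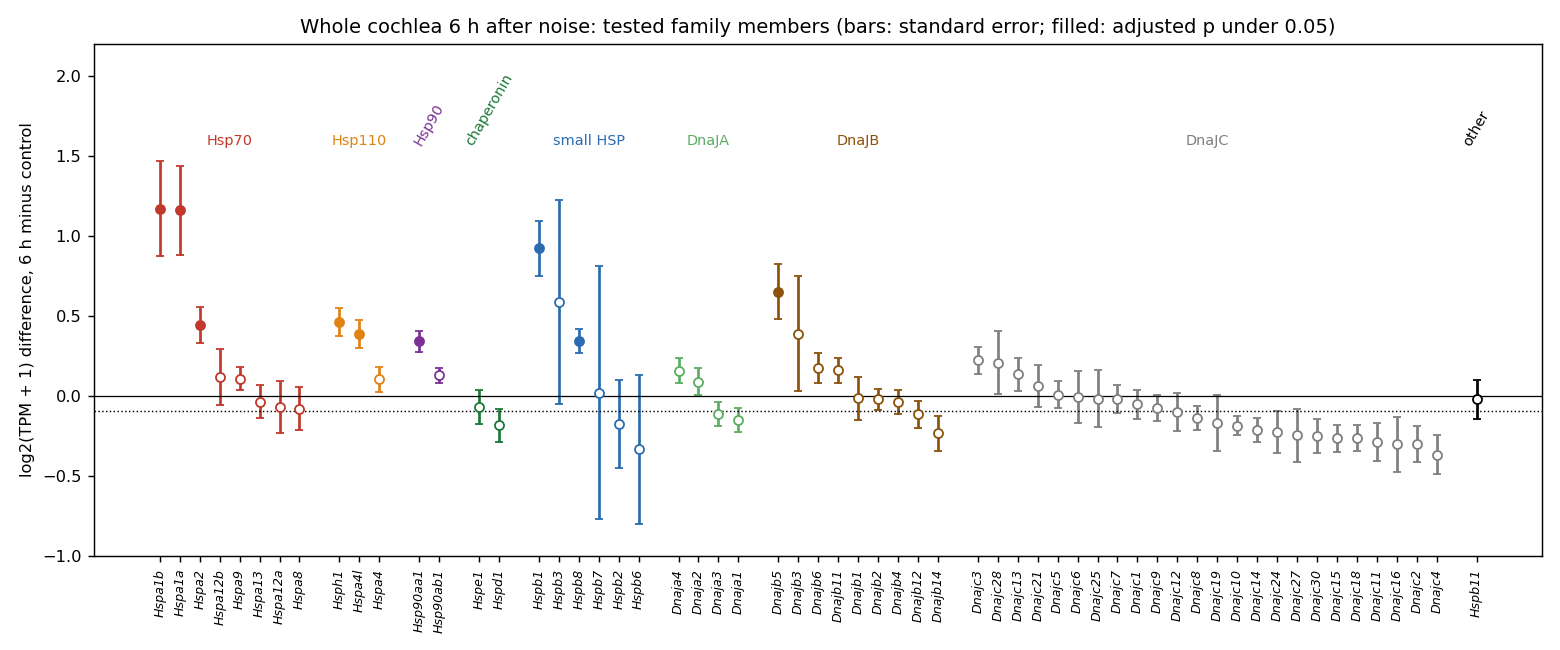
Difference on the log2(TPM + 1) scale between whole cochlea inputs 6 h after noise and controls for the 59 members tested, grouped by class; points are estimates over both strains, bars the standard error, filled points an adjusted p under 0.05, and the dotted line the median of all genes tested (-0.09). The 9 filled points all lie above 0, with Hspa1b (1.17) and Hspa1a (1.16) highest, and no DnaJC gene is filled.

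Taken within a strain, the 9 differences kept their sign. For the 7 genes whose pooled groups did not overlap, this follows from those groups and is no further support. In the Prestin inputs alone, Hspb1 differed by 1.24, Hspa1b by 1.53 and Hspa1a by 1.12, each past the threshold, and 4 members passed (3 higher and 1 lower), where 4.71% of all genes tested there did. In the Sox2 inputs alone, with 2 against 2 libraries, limma called no member and 0.975% of all genes. There Hspa1a differed by 1.22, Hspb1 by 0.44 and Hspa1b by 0.63. A test of the strain difference in this response, added after the data were seen, passed for Dnajc28 alone (1 of 62 members tested, lower; 1.02% of all genes, 0.891% higher and 0.131% lower), by -1.21 ± 0.23 (adjusted p = 0.0303). Dnajc28, a mitochondrial J protein with an antisense neighbour over its length, was at 10.4 to 11.8 TPM in Prestin control inputs and 7.91 to 10.4 TPM at 6 h, against 6.22 and 8.92 TPM and then 13.2 and 17.4 TPM in Sox2. Hspb1 differed between strains by 0.80 ± 0.30 in that test (adjusted p = 0.239), so its smaller Sox2 response was not shown to differ. Leaving out 1 library gave 0 to 4 calls in that comparison. The Dnajc28 call was lost without any 1 of the 3 Prestin control inputs, without Prestin replicate 2 or 3 at 6 h, without Sox2 replicate 4 at 6 h and without Sox2 control replicate 4.

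At 24 h fewer members were called in the whole cochlea than at 6 h. Of all genes 4.44% passed in either direction, 3.78% as higher and 0.662% as lower, and of the 59 members 3 were higher and 1 lower. The higher ones were Hspb1 (0.76 ± 0.16, adjusted p = 0.0150), Hspb8 (0.35 ± 0.07, adjusted p = 0.0112) and Dnajb11, a J protein of the endoplasmic reticulum (0.35 ± 0.07, adjusted p = 0.0112). Hspb1 was at 156 to 273 TPM with a median of 219 TPM in the 6 inputs, Hspb8 at 36.3 to 46.7 TPM with a median of 42.0 TPM, and Dnajb11 at 33.5 to 38.4 TPM with a median of 35.1 TPM against 25.9 to 29.8 TPM in controls. None of these 3 overlapped with its controls. They were the 3 members wholly above controls (4.17% of all genes), and 0 members lay wholly below them (0.767%). Dnaja1, a DnaJ partner of Hspa8, fell by 0.28 on the log2 scale (adjusted p = 0.0402), with overlapping groups (26.3 to 32.1 TPM in controls and 21.6 to 26.4 TPM at 24 h) and a call in 8 of 16 fits without 1 library. It was lost without any 1 Prestin library of 24 h, Prestin control 1 or 3, Sox2 control 1 or Sox2 24 h replicate 1 or 3. Summed macrophage markers (8 genes) were at 318 to 480 TPM in the 24 h inputs against 147 to 203 TPM in controls, and their part in these 4 calls was not tested.

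Hspa1a and Hspa1b were not called at 24 h (0.42 ± 0.27, adjusted p = 0.521, and 0.39 ± 0.29, adjusted p = 0.596), and their inputs spread widely. The Hspa1a level was 36.3, 37.8 and 49.7 TPM in Prestin and 15.1, 32.3 and 53.0 TPM in Sox2. Their sum was 85.7 to 128 TPM in the Prestin 24 h inputs, above all controls, and 39.3 to 123 TPM in the Sox2 ones, on both sides of the Sox2 controls (69.1 and 76.2 TPM). In the Prestin inputs alone Hspa1a passed at 24 h (0.74, adjusted p = 0.0492), and in the Sox2 inputs alone it differed by 0.04.

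**Figure D2:**
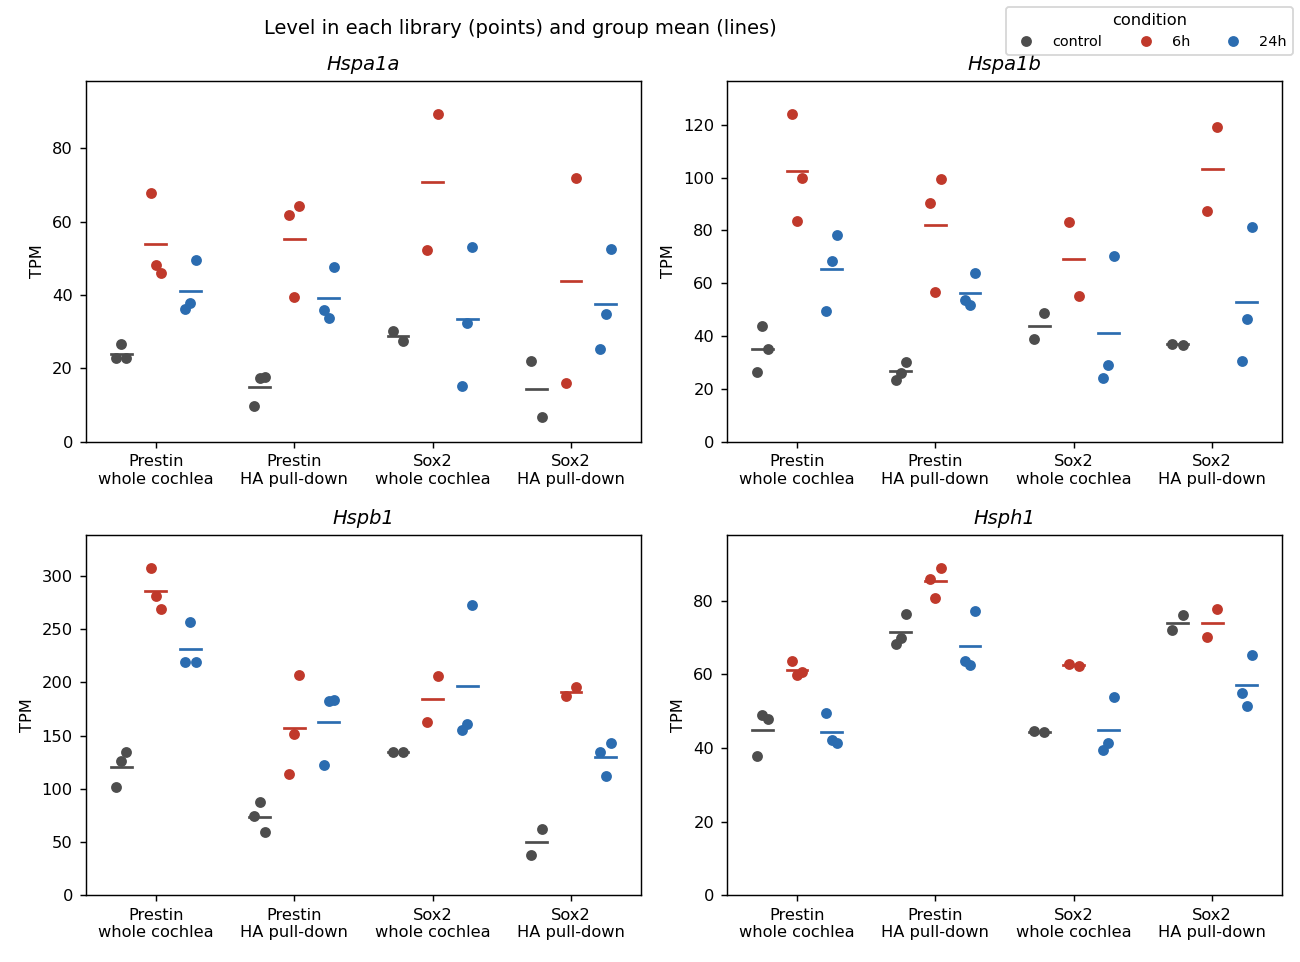
TPM of Hspa1a, Hspa1b, Hspb1 and Hsph1 in each of the 32 libraries (points) with the mean of each of the 12 groups (lines); the x axis gives strain and fraction, and colours give the condition. Hspb1 in whole cochlea inputs lies at 102 to 135 TPM in controls and at 163 to 308 TPM at 6 h, and Hsph1 returns at 24 h to 39.4 to 53.8 TPM from 59.7 to 63.7 TPM at 6 h.

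The step from 6 h to 24 h was compared directly, in a comparison that shares its 6 h and 24 h inputs with those above. Of all genes 16.1% passed, 12.6% as higher and 3.48% as lower, and of 59 members 4 were higher and 5 lower. Groups did not overlap for 1 member higher at 24 h (6.17% of all genes) and 3 lower (1.92%). Lower at 24 h were Hspa4l (-0.60 ± 0.08, adjusted p = 0.000317), Hsph1 (-0.47 ± 0.09), Hsp90aa1 (-0.38 ± 0.07), Dnaja4 (-0.28 ± 0.07) and Dnajb5 (-0.53 ± 0.17, adjusted p = 0.0440). Hspa4l was at 35.7 to 41.6 TPM with a median of 39.6 TPM at 24 h, below all inputs of 6 h. Higher at 24 h were Dnajc10, an endoplasmic reticulum J protein with disulfide reductase activity (0.38 ± 0.06), Dnajc30 (0.40 ± 0.10), Dnajc4 (0.40 ± 0.12) and Dnajc8 (0.23 ± 0.07). Under scaling by median of ratios 2 were higher and 7 lower. Dnajb5 kept its call in 5, Dnajc8 in 6 and Dnajc4 in 10 of the 16 fits without 1 library. Hspa1a (-0.74 ± 0.27, adjusted p = 0.0773), Hspa1b (-0.78 ± 0.29, adjusted p = 0.0814) and Hspb1 (-0.17 ± 0.16) were not called.

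In ribosome-bound RNA of the Prestin strain, both inducible Hsp70 genes rose at 6 h and at 24 h. Hspa1a was at 9.67, 17.4 and 17.6 TPM in control pull-downs, at 61.8, 39.6 and 64.4 TPM at 6 h and at 36.1, 33.7 and 47.7 TPM at 24 h. Hspa1b was at 23.4, 26.1 and 30.3 TPM, then at 90.3, 56.6 and 99.4 TPM and at 53.7, 51.9 and 63.9 TPM. No exposed library of either gene overlapped with its controls. The sum of both was 33.1 to 47.9 TPM, then 96.2 to 164 TPM and 85.5 to 112 TPM. Hspb1 went from 74.4, 87.4 and 59.7 TPM to 114, 151 and 207 TPM at 6 h and 122, 182 and 183 TPM at 24 h, again without overlap.

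At 6 h, 4 of 59 members passed, 3 higher and 1 lower, where 5.63% of all genes did (0.856% higher and 4.77% lower). Hspa1b by 1.56 ± 0.22 (adjusted p = 0.0167), Hspa1a by 1.84 ± 0.29 (adjusted p = 0.0208) and Hspb8 by 0.98 ± 0.20 (adjusted p = 0.0397) were higher, and Dnajc7 fell by 1.0 on the log2 scale (adjusted p = 0.0404). The median gene was at -0.17 in this comparison, so Hspa1b stood 1.73 and Hspa1a 2.01 above it. At 24 h, 5 passed, 3 higher and 2 lower, where 6.23% of all genes did (1.1% higher and 5.14% lower). Hspa1a (1.37 ± 0.29, adjusted p = 0.0360), Hspa1b (1.06 ± 0.22, adjusted p = 0.0376) and Hspb1 (1.12 ± 0.27, adjusted p = 0.0490) were higher, and Hspa12a (-0.84 ± 0.17, adjusted p = 0.0322) and Dnajc7 (-1.01 ± 0.21, adjusted p = 0.0351) were lower. Hspb1 at 6 h differed by 1.06 ± 0.27 with an adjusted p of 0.0591. Without regard to the test, groups did not overlap for 7 members higher at 6 h (6.09% of all genes) and 9 lower (23.0%), and for 12 higher at 24 h (9.59%) and 15 lower (25.9%). Median-of-ratios scaling kept 3 higher and 0 lower at either time. These calls rest on few libraries: without 1 library, 0 to 4 members passed at 6 h and 0 to 4 at 24 h. No member passed at 6 h without 6 h replicate 1, and none passed at 24 h without control replicate 1 or 3, without any 1 of the 3 libraries at 24 h, or without 6 h replicate 1.

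Dnajc7, a co-chaperone that binds both Hsp70 and Hsp90, was at 84.6, 53.1 and 68.3 TPM in the Prestin control pull-downs, at 31.2, 31.2 and 37.7 TPM at 6 h and at 29.9, 29.2 and 40.9 TPM at 24 h, while the Prestin inputs stayed between 23.7 and 27.4 TPM. Its exposed pull-downs lay below all control pull-downs. Dnajc7 overlaps Cnp, a myelin gene on the opposite strand with a mean of 167 TPM, for 8912 bases, and whether their reads were separated is unknown. Hspa12a, a distant relative of Hsp70, was at 14.9, 10.9 and 13.3 TPM in control pull-downs and at 7.93, 6.44 and 5.99 TPM at 24 h. Hspb8 was at 24.3, 27 and 20.8 TPM in control pull-downs and at 50.4, 62.1 and 35.8 TPM at 6 h. Hspa2, which rose in the whole cochlea at 6 h, was at 609, 476 and 444 TPM in the Prestin control pull-downs. It was at 433, 334 and 330 TPM at 6 h and at 419, 398 and 433 TPM at 24 h. These lay below all controls, as did 23.0% of all genes at 6 h and 25.9% at 24 h, and Hspa2 was called at neither time.

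In ribosome-bound RNA of the Sox2 strain, the gene called was Hspb1, at 6 h. It was at 37.7 and 62.6 TPM in control pull-downs, at 187 and 196 TPM at 6 h and at 134, 112 and 143 TPM at 24 h. Every exposed library was above both controls. The difference at 6 h was 1.95 ± 0.26 (adjusted p = 0.0481), 1 of 62 members where 0.694% of all genes passed (0.216% higher and 0.478% lower). An unadjusted p under 0.05 was found for 8 of 62 members and for 3173 of all 17577 genes. At 24 h Hspb1 differed by 1.39 ± 0.24 (adjusted p = 0.137). There limma called no member, where 0.188% of all genes passed. At 24 h 4 of 62 members had an unadjusted p under 0.05 (Dnajb3, Dnajc14, Hspb1 and Hspb6), as did 2028 of all 17577 genes. The joint fit of pull-downs and inputs called 1. With so few libraries many groups did not overlap: 11 members were higher at 6 h (18.5% of all genes) and 14 lower (24.1%), and 11 higher at 24 h (22.3%) and 13 lower (10.8%). The 6 h call of Hspb1 was lost on leaving out any 1 of the 7 Sox2 pull-downs. Hspa1b was at 37.2 and 36.6 TPM, then at 87.2 and 119 TPM at 6 h (1.44 ± 0.44, adjusted p = 0.181). Hspa1a was at 22.1 and 6.71 TPM, then at 16 and 71.8 TPM, with overlapping groups. The split between the copies varied there: Hspa1a made up 15.5% of the sum in control replicate 4 and again 15.5% in 6 h replicate 2. The sum of both was 43.3 and 59.3 TPM without noise, 103 and 191 TPM at 6 h and 55.7 to 134 TPM at 24 h, so the 6 h libraries were above both controls and one 24 h library was not.

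**Figure D3:**
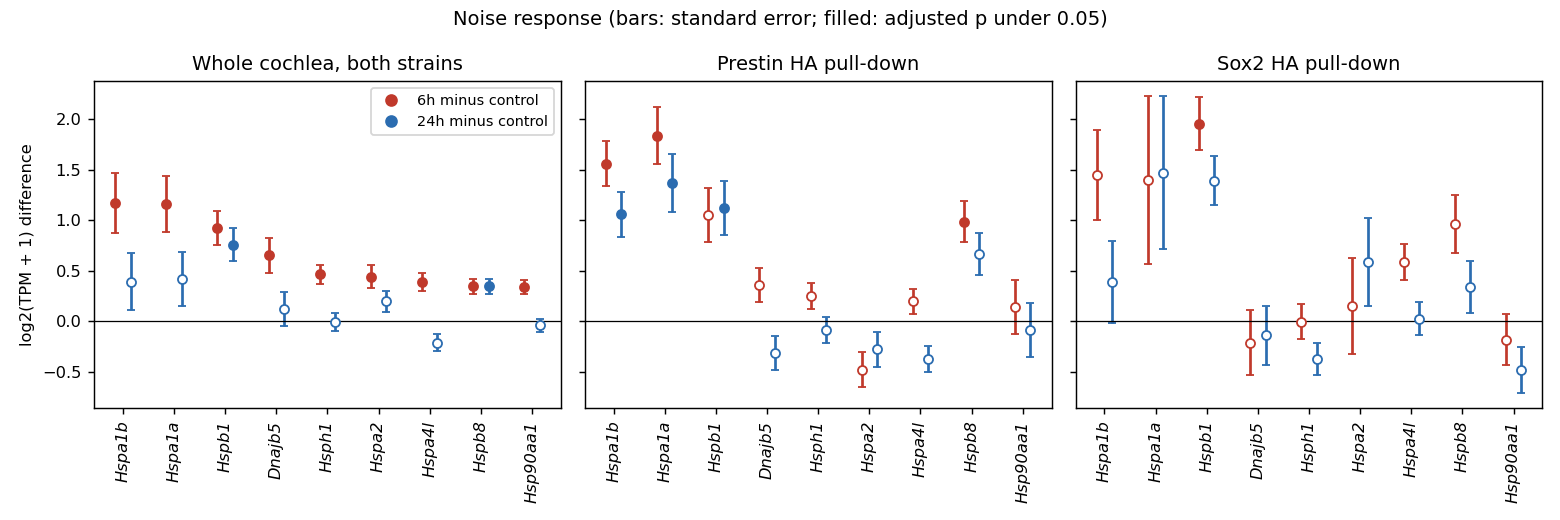
Difference from control on the log2(TPM + 1) scale at 6 h and 24 h for the 9 members called in the whole cochlea at 6 h, in whole cochlea inputs of both strains, Prestin pull-downs and Sox2 pull-downs; bars give the standard error and filled points an adjusted p under 0.05. Hspb1 is above 0 in all 6 comparisons, from 0.76 to 1.95. Hsph1 lies at 0.46 in the whole cochlea at 6 h and is filled in no pull-down comparison, which does not show a different response. Its Prestin pull-downs were at 68.2 to 76.3 TPM in controls and 80.8 to 89.1 TPM at 6 h. Those of Sox2 overlapped, at 72.0 and 76.3 TPM and then 70.3 and 77.8 TPM.

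Whether pull-down and input of a strain responded differently was tested as an interaction. In Prestin at 6 h, 2 of 61 members passed, both lower, where 2.42% of all genes did (0.150% higher and 2.27% lower). Dnajc7 differed by -0.94 ± 0.22 (adjusted p = 0.0419) and Dnajb6, a J protein that suppresses aggregation, by -0.72 ± 0.18 (adjusted p = 0.0476). Dnajb6 was at 7.10, 6.38 and 6.20 TPM in control pull-downs and 4.35, 3.86 and 5.21 TPM at 6 h, against 2.15 to 3.04 TPM and 2.92 to 3.47 TPM in inputs. Both calls were lost with the homogenate as a block, which pairs each pull-down with its own input. The Dnajb6 call was lost on leaving out any 1 of the 9 homogenates, and the Dnajc7 call on leaving out any of them but control replicate 2. In Prestin at 24 h limma called no member (1.04% of all genes), in Sox2 at 6 h none (0.269%) and in Sox2 at 24 h none (0.0485%). In the same order, 9 of 61, 5 of 63 and 4 of 63 members had an unadjusted p under 0.05. Over all genes these were 3031 of 17363, 2030 of 18560 and 1025 of 18560. Hspb1 in Sox2 at 6 h had a difference of 1.51 ± 0.42 with an adjusted p of 0.226, so a larger response in the pull-down than in the input was not shown.

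Pull-down and input were then compared over all conditions. In Prestin the median gene was 0.82 higher in the pull-down and 76.1% of all genes passed, 68.5% as higher and 7.68% as lower. The median member was 0.47 higher, and 48 of 61 passed, 39 higher and 9 lower. In Sox2 the median gene was 0.65 higher and 57.9% of all genes passed, 55.2% as higher and 2.72% as lower. The median member was 0.54 higher, and 41 of 63 passed, 39 higher and 2 lower. Direction depends on the scaling: scaling by median of ratios, which puts the median gene near 0 (0.05 and 0.02), left 7 higher and 38 lower in Prestin and 6 higher and 25 lower in Sox2. For the members described next, the distance from the median gene is given too, in Prestin and then in Sox2, where both are named.

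Hspa2 was well above the median gene in both pull-downs. It was at 330 to 609 TPM with a median of 433 TPM in the 9 Prestin pull-downs against 102 to 167 TPM with a median of 130 TPM in the inputs. In the 7 Sox2 pull-downs it was at 327 to 905 TPM with a median of 597 TPM against 109 to 181 TPM with a median of 129 TPM. All 16 pull-downs were above their own input, with differences of 1.70 ± 0.09 in Prestin (0.89 above the median gene) and 1.95 ± 0.21 in Sox2 (1.30 above). Dnajb5 was 1.83 ± 0.10 higher in Prestin and 1.38 ± 0.17 in Sox2, again in all 16, which is 1.01 and 0.74 above the median gene. Less far above it were Dnajc13, an endosomal J protein (0.68 and 0.48 above), Dnajb14 (0.66 and 0.50), Dnajc16 (0.63 and 0.68) and Dnajc14 (0.57 and 0.32). Dnajc14 overlaps the opposite-strand genes Ormdl2 and Tmem198b. In Sox2, Hspa12a (1.40 ± 0.18, 0.75 above the median gene) and Hspb2 (1.18 ± 0.22, 0.54 above) were among the highest, and Hspb2 lost its call under scaling by median of ratios (0.29, adjusted p = 0.309). Hspb2, a muscle-type small heat shock protein, shares 1030 bases with Cryab on the opposite strand, whose mean was 499 TPM.

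Hspb1 was lower in the pull-downs, by -0.71 ± 0.12 in Prestin (adjusted p = 8.94e-05, below the own input in 9 of 9 homogenates) and by -0.65 ± 0.16 in Sox2 (adjusted p = 0.00552, 6 of 7 homogenates). Relative to the median gene it stood at -1.53 and -1.29. These values pool conditions in which Hspb1 itself changed: in control libraries alone it differed by -0.71 in Prestin and by -1.45 in Sox2 (adjusted p = 0.0181 and 0.0395). Hspa1a and Hspa1b were not called in either strain. Hspa1a differed by -0.25 ± 0.14 in Prestin and -0.62 ± 0.42 in Sox2, and in control libraries alone by -0.70 and -1.16 (adjusted p = 0.0511 and 0.199). Under scaling by median of ratios Hspa1a was called as lower in both strains (-1.29 and -1.50) and Hspa1b in Prestin (-1.35). The other Prestin members lower were Hspe1 (-0.75 ± 0.09), Hsp90ab1 (-0.44 ± 0.06), Dnajc9 (-0.41 ± 0.07), Hspa9 (-0.25 ± 0.07), Hspa8 (-0.44 ± 0.16), Dnajb3 (-1.35 ± 0.31) and, at low levels, Dnajc15 (-0.91 ± 0.07) and Hspb11 (-0.45), and relative to the median gene they stood at -1.06 (Hspa9) to -2.17 (Dnajb3). The other Sox2 member lower was Dnajc15 (-0.53 ± 0.12, -1.18 relative to the median gene).

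Hsp90ab1, Hspa9, Hspe1 and Hspd1 were among the members whose enrichment differed between the strains. Of 65 members tested 10 passed, where 21.6% of all genes did (14% higher and 7.62% lower), 9 with the lower enrichment in Prestin and 1 with the higher. Hsp90ab1 was at 1275 to 1797 TPM in the Prestin pull-downs and below the own input in 9 of 9 homogenates, and at 1995 to 2542 TPM in the Sox2 pull-downs and above the own input in 7 of 7. Its Sox2 direction depends on the scaling: relative to the Sox2 median gene it stood at -0.33, and median-of-ratios scaling turned its Sox2 value from 0.31 to -0.60. The strain difference was -0.75 ± 0.09 (adjusted p = 2.98e-06). Hspa9, mitochondrial Hsp70, differed by -0.83 ± 0.11, Hspe1 and Hspd1, the small and large subunits of the mitochondrial chaperonin, by -0.80 ± 0.15 and -0.72 ± 0.16, Dnajc9, a J protein that also binds histones, by -0.71 ± 0.14 and Hsp90aa1 by -0.52 ± 0.17. Hspe1 and Hspd1 lie head to head on chromosome 1 and their annotated genes overlap by 112 bases. Dnajc19 (-0.61 ± 0.21), Dnajc30 (-0.48 ± 0.16) and Dnajc15 (-0.38 ± 0.12) were lower too, and Dnajc14 was higher (0.42 ± 0.13). The median gene differed by 0.19 here, and rescaling without mitochondrially encoded genes, Malat1 and Mir6236 gave 6 higher and 5 lower. Control libraries alone gave 2 calls, Dnajc9 among them, where 2.27% of all genes passed. There Hsp90ab1 (adjusted p = 0.0679), Hspe1 (0.154), Hspa9 (0.278), Hsp90aa1 (0.316) and Hspd1 (0.421) lost theirs. Leaving out 1 homogenate gave 5 (without Prestin 24 h replicate 1) to 16 (without Prestin control replicate 1). The TPM tables of both strains list different numbers of genes, 39399 and 43947, so strain and table cannot be told apart.

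**Figure D4:**
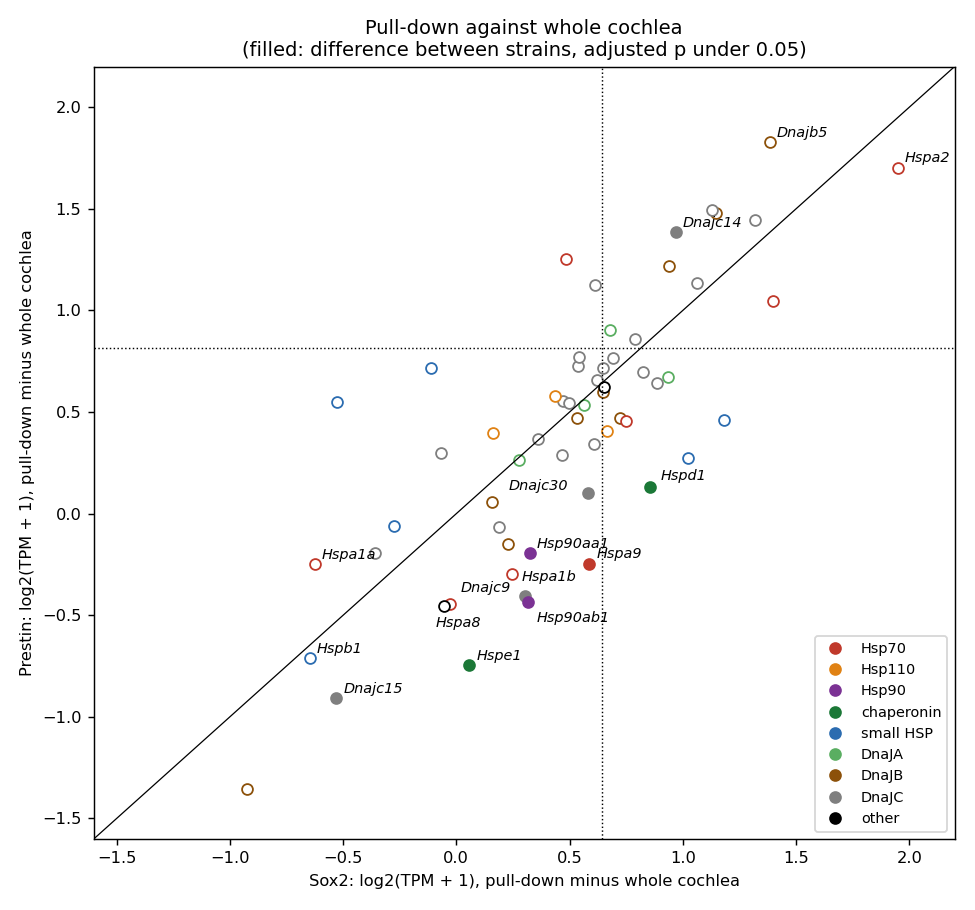
Pull-down minus whole cochlea on the log2(TPM + 1) scale in Sox2 (x axis) and Prestin (y axis) for the 60 members tested in both, coloured by class; the diagonal marks equal values, dotted lines the median of all genes (0.65 and 0.82), and filled points a difference between strains with an adjusted p under 0.05. Hsp90ab1, Hspa9, Hspe1, Hspd1 and Hsp90aa1 lie below the diagonal, and Hspa2 and Dnajb5 at the upper right.

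Hspa8 and Dnajc19, chosen after their values were seen, stood apart between the strains. Hspa8 was at 28.1 to 79.3 TPM in the 18 Prestin libraries and at 135 to 202 TPM in the 14 Sox2 libraries, and Dnajc19, a mitochondrial import protein, at 0.055 to 1.31 TPM against 1.37 to 6.75 TPM. The ranges do not overlap, and strain and gene table cannot be told apart.

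Across members, enrichment went with transcript length. The Spearman correlation between the pull-down difference and the longest annotated transcript was 0.51 over the 61 members in Prestin and 0.35 over the 63 in Sox2, and 0.31 and 0.37 over all genes. The points share the libraries, and this is a description across genes. The 15 Prestin members under 2000 bases had a median difference of -0.06 and the 46 longer ones of 0.57. In Sox2 the 14 members under 2000 bases had a median difference of 0.12 and the 49 longer ones of 0.61.

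Hspb6 and Hspb7, small heat shock proteins of muscle that were chosen here after their values were seen, varied with single libraries. Hspb7 was at 13.6 and 25.5 TPM in Sox2 inputs 1 and 2 at 24 h and at 0.59 TPM in replicate 3, and Hspb6, an actin-associated small heat shock protein, at 55.9, 95.3 and 32.9 TPM. The sum of 10 muscle markers was 1571 and 2250 TPM in the same inputs 1 and 2, 45.1 TPM in replicate 3 and 21.9 to 333 TPM in the other inputs. In the Sox2 24 h pull-downs that sum was 570, 570 and 27.5 TPM, with Hspb6 at 65.0, 79.6 and 28.9 TPM. Hspb2 did not follow it, at 35.9, 42.2 and 53.6 TPM in the Sox2 24 h inputs, highest in replicate 3. Hspb6 and Hspb7 were not called in any noise comparison, and the part of muscle RNA in their levels was not tested.

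The wider chaperone network moved in part. Among the heat shock factor and co-chaperone genes tested in the whole cochlea at 6 h, Bag3, the partner of Hspb8, was higher by 0.29 ± 0.06 and the small heat shock protein Cryab by 0.27 ± 0.07. Chordc1 fell by 0.46 and Hscb, an iron-sulfur cluster J protein, fell by 0.60 on the log2 scale. None of the 35 genes of this list tested was called at 24 h. Hsf1, the main heat shock factor, differed by -0.01 ± 0.15 at 6 h (adjusted p = 0.977). Of the 8 subunits of TRiC, the cytosolic chaperonin, Cct4 fell by 0.22 at 6 h and none passed at 24 h. Of 12 endoplasmic reticulum chaperones, 7 were higher at 6 h and 8 at 24 h, where 3.83% and 3.78% of all genes were higher (4.71% and 0.662% lower), with Hyou1 at 0.65 ± 0.06 and 0.28 ± 0.06 and Pdia4 at 0.53 ± 0.06 at 24 h. The median differences at 6 h were -0.04 for the co-chaperones, -0.08 for TRiC, 0.33 for the endoplasmic reticulum list and -0.09 for all genes. In the Prestin pull-downs Hsf4 (-1.12 ± 0.25 at 6 h and -1.57 ± 0.25 at 24 h) and the cyclophilin Ppid (-0.83 ± 0.16 and -0.77 ± 0.16) were lower at both times, and no TRiC or endoplasmic reticulum gene passed. These were 2 of 35 co-chaperone list genes tested, where 4.77% (6 h) and 5.14% (24 h) of all genes were lower. Mean Hsf4 in control, 6 h and 24 h inputs was 10.4, 5.29 and 4.16 TPM in Prestin and 6.21, 15.5 and 10.1 TPM in Sox2. In the Sox2 pull-downs limma called none of the 3 lists' genes. The smallest p at 6 h was that of Unc45a, an Hsp90 co-chaperone (0.86 ± 0.17, adjusted p = 0.0988).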

How the data were processed

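The libraries held RNA of whole cochlea homogenates and of HA pull-downs, made with a directional kit in biological triplicates, per the labels' protocols. The authors deposited TPM values per gene, each library summing to 1000000. TopHat and the build GRCm38 appear per the submitters' processing notes. The sources used here do not name the counting or TPM tool, the annotation, versions or strand setting, and depth is unknown.

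The test was limma 3.58.1 in R 4.3.3 (lmFit, eBayes with trend) on log2(TPM + 1), over genes with 1 TPM or more in 3 libraries for Prestin fits, 2 for Sox2 fits, 5 for the pooled inputs and 2 for fits across strains, adjusted by Benjamini-Hochberg, with calls at 0.05. Such differences understate changes of low genes. The fit was tested on simulated data. Figures were drawn with matplotlib 3.10.9 in python 3.11.15. Member positions are from GENCODE M21 (GRCm38) and all 69 matched.

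The members and lists were chosen with earlier results of these data known. The genes named were Hspa1a, Hspa1b and Hspb1 throughout, every member past the threshold with noise, up to 6 highest and 6 lowest with at least 5 TPM per enrichment, the 6 most abundant, members at 0, and up to 4 genes of the co-chaperone, TRiC and endoplasmic reticulum lists. Some genes named as examples (Hspa8, Dnajb1, Hsph1 and the muscle-type genes) were chosen after their values were seen. Pull-down and input share a homogenate by design, and their deviations correlated with r of 0.0209 to 0.273 over 16 homogenates. A gene of the co-chaperone list is not reported here.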

Additional observations from a re-analysis of the deposited data

Results flagged for a closer look

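In the 5 whole cochlea controls, Hspb1 in Prestin replicate 1 (102 TPM) lay below the other 4 (126 to 135 TPM) by a gap that passed Dixon's test. Among the 6 inputs at 24 h, Dnaja4 in Prestin replicate 1 (26.0 TPM) lay above the other 5 (23.2 to 24.0 TPM) in the same way. These were 2 of 57 groups checked, and chance flags about 1 in 20.

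Pull-down enrichment differed between strains (interaction, limma) for 10 members, as Prestin minus Sox2: Hsp90ab1 by -0.75, Hspa9 by -0.83, Hspe1 by -0.80, Hspd1 by -0.72, Dnajc9 by -0.71, Dnajc19 by -0.61, Hsp90aa1 by -0.52, Dnajc30 by -0.48, Dnajc15 by -0.38 and Dnajc14 by 0.42. The noise response at 6 h differed between Prestin pull-down and input for Dnajc7 by -0.94 and Dnajb6 by -0.72. It differed between the inputs of Prestin and Sox2 for Dnajc28 by -1.21. The Dnajc7 and Dnajb6 calls were lost with the homogenate as a block, and the Dnajc28 call with the replicate block. Each was also lost in fits that left out a homogenate or library, as given above.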

How the results depend on the processing

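Counts are members past the threshold. Each was recomputed without the filter, with 0.1 as pseudocount, with median-of-ratios scaling, with rescaling that leaves out mitochondrially encoded genes, Malat1 and Mir6236, with a replicate block, on subsets and without each library or homogenate. For named genes, 2440 alternative values kept their side of the threshold. These include values whose sign changed where neither fit passed. Of the rest, 280 lost the call, 21 gained one and 6 reversed sign with a call in at least 1 of the fits compared. The reversals came with median-of-ratios scaling: Prestin enrichment of Dnajb2 (-0.59) and Dnajc30 (-0.97), and Sox2 enrichment of Hsp90ab1 (-0.60), Hsp90aa1 (-0.59), Dnajb2 (-0.19) and Dnajc30 (-0.33).

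Control libraries alone, with fewer samples, gave 16 of 60 members for Sox2 enrichment (main 41), where 30.1% of all genes passed. For the strain difference (main 10) they gave 2 of 61, where 2.27% of all genes passed. Whole cochlea counts at 6 h (main 9) were 4 in Prestin alone (4.71% of all genes) and 0 in Sox2 alone (0.975%). At 24 h (main 4) Sox2 alone gave 0 (0% of all genes), and for 24 h against 6 h (main 9) it gave 2 (3.39%). In Prestin pull-downs at 6 h (main 4) no filter gave 2 and the joint fit of both fractions 15. At 24 h (main 5) these gave 2 and 19, and median-of-ratios scaling 3. In Sox2 pull-downs at 6 h (main 1) no filter and rescaling gave 0 and the joint fit 5, and at 24 h (main 0) the joint fit gave 1. The Prestin response difference at 6 h (main 2) fell to 0 with the 0.1 pseudocount and with median-of-ratios scaling, and to 1 without a filter and with rescaling. Beyond fewer samples, the cause was not tested. Counts of alternative fits given in this report without the share of all genes may follow that share. Those counts are not results about the members.

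No pairing of samples by replicate number across conditions was seen: 0 of 24 pairs correlated over 0.1 (-0.0834 to 0.0673). This check cannot show that such pairing is absent. Only 5 of 16 pull-downs correlated over 0.1 with the input of their own homogenate. With the number as a replicate block, the counts were 6 in the whole cochlea at 6 h, 1 at 24 h and 4 for 24 h against 6 h, 1 and 0 in Prestin pull-downs at 6 h and 24 h, 0 in Sox2 pull-downs at either time and 0 for the strain difference of the input response. The homogenate as a block, a pairing by design, gave 49 for Prestin enrichment, 42 for Sox2 enrichment, 13 for the strain difference (4 higher, 9 lower) and 0 for each response difference.

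Leaving out 1 library or homogenate gave 47 to 50 for Prestin enrichment, 38 to 43 for Sox2 enrichment, 5 to 16 for the strain difference, 7 to 13 in the whole cochlea at 6 h, 3 to 5 at 24 h and 6 to 11 for 24 h against 6 h. It gave 0 to 4 in Prestin pull-downs at 6 h and 0 to 4 at 24 h, 0 in Sox2 pull-downs at either time, 0 to 2 and 0 to 1 for the Prestin response differences at 6 h and 24 h, 0 for those in Sox2 and 0 to 4 for the strain difference of the input response. A lone sample left in an arm was taken to vary like the other groups. Depth is unknown, so no counting error can be given for low members.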
